A study of Homo sapiens with 3 samples.

Results

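The folate one-carbon pathway carries single carbons on folate for the synthesis of purines, thymidylate and methionine. Its 8 genes examined here were 7 enzymes and 1 transporter, listed by pathway with earlier results of these data known. They are set beside all 20037 protein-coding genes placed on chromosomes 1 to 22, X and Y. A peak was assigned to a gene that it overlapped or to which it came within 1000 bp. The labels give no treatment for Hep3B, an established human hepatocellular carcinoma line, and 1 CUT&RUN library was made with a SOX4 antibody, 1 with a STAT6 antibody and 1 with IgG. CUT&RUN leads a nuclease to antibody-bound chromatin and sequences the DNA it releases. There were 4513 SOX4 and 1078 STAT6 peaks, both sets called over the same IgG library. With 1 library per antibody there is no replicate check, no p-value was computed, and the values describe these libraries only.

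In this pathway serine hydroxymethyltransferase moves a carbon from serine to tetrahydrofolate, and the MTHFD enzymes oxidise or reduce the carbon on its way to formate. Cells keep parallel sets of these enzymes. SHMT2, MTHFD2, MTHFD2L and MTHFD1L act in mitochondria, where the carbon is released as formate, while SHMT1 and MTHFD1 act in the cytosol. TYMS uses the carbon to make thymidylate for DNA and was counted as cytosolic, although it also works in the nucleus. SLC19A1 is the reduced folate carrier of the plasma membrane. Proliferating tumour cells rely on the mitochondrial arm, and MTHFD2 is low in most adult tissues.

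Most listed peaks at the 8 genes lay at TYMS and SLC19A1. MTHFD2, TYMS and SLC19A1 held peaks in both lists, MTHFD1L held a SOX4 peak alone, and MTHFD2L, SHMT2, MTHFD1 and SHMT1 held none. Thus 4 of 8 genes held a SOX4 peak, where 6.35% of all protein-coding genes did, 3 of 8 held a STAT6 peak, where 1.08% did, and 3 of 8 held both, where 1.03% did. The study's folate scheme, drawn from the same ChIP-seq together with RNA-seq, already names MTHFD2, TYMS and SLC19A1. Because the genes were chosen with such results known, these shares do not measure an enrichment of the pathway. The lists contain only what passed the authors' threshold, and the read depth is unknown, so a gene without a peak is one where none was listed. In all, 11 SOX4 and 14 STAT6 peaks lay at the 8 genes, and 9 and 13 of these lay at TYMS and SLC19A1.

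**Figure D1:**
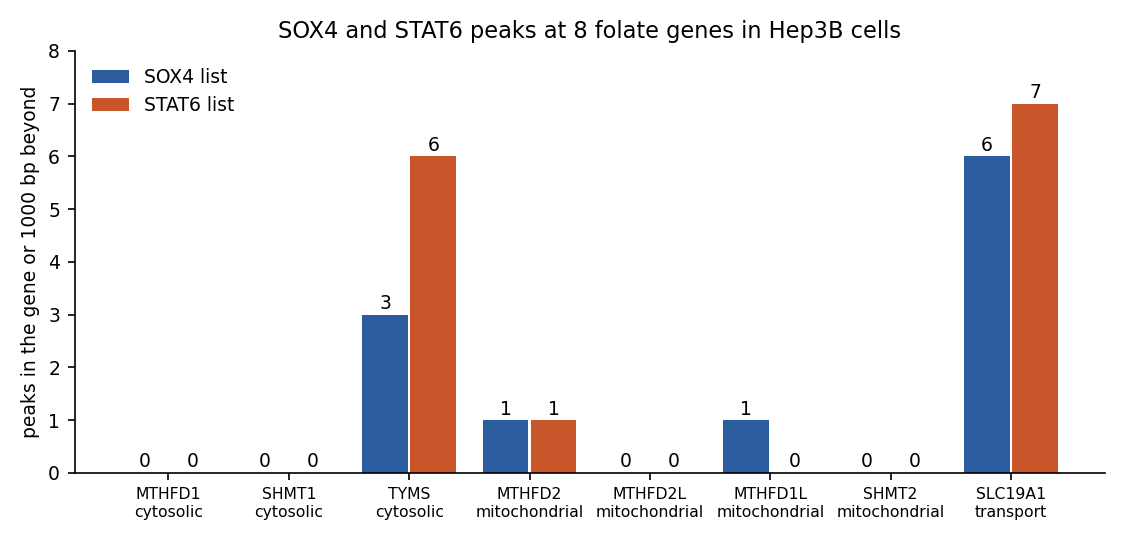
Number of peaks (vertical axis) in each gene or within 1000 bp of it, for the SOX4 list (blue) and the STAT6 list (orange), with the compartment of each gene product below its symbol. TYMS held 3 and 6 peaks and SLC19A1 held 6 and 7, whereas the 4 mitochondrial genes together held 2 and 1.

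The promoters under peaks are shown first, because the peaks of both lists met at a start site of each of the 3 genes. The letters are the 250 bases before an annotated start, read 5′ to 3′ on the strand of the gene, from RefSeq (GRCh38.p14), in which 7 of the 8 genes had a window. In the MTHFD2 line capitals mark the stretch from the SOX4 summit to the STAT6 summit, the positions of highest signal in each peak. The windows lie at chr2:74198365-74198614 on the plus strand, chr18:657403-657652 on the plus strand and chr21:45542441-45542690 on the minus strand.
MTHFD2: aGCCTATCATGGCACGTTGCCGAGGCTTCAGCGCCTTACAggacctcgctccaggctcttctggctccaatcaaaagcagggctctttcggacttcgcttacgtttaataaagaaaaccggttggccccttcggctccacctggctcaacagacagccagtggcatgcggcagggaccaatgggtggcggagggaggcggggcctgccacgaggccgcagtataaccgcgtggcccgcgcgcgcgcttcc
TYMS: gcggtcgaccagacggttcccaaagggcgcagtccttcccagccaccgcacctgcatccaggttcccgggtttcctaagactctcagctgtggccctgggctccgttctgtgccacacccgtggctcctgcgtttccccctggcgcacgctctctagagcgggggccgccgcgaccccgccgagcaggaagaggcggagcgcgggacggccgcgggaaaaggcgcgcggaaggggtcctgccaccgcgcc
SLC19A1: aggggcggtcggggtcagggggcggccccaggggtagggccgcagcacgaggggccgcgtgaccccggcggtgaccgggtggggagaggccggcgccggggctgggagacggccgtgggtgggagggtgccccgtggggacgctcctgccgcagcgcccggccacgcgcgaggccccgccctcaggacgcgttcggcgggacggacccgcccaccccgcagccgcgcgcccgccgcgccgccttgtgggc

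All 3 windows were rich in G and C, with 62.4% at MTHFD2, 71.2% at TYMS and 82.8% at SLC19A1, and they held 21, 28 and 38 CpG pairs. Windows of this pathway without a peak had 35.2% and 70.4% at MTHFD2L, 40.4% to 76% at MTHFD1L and 60% at MTHFD1. The others without a peak had 68.4% at SHMT1, and 47.2% and 65.2% at SLC19A1. The values at MTHFD2 and TYMS thus lay within the range of windows without a peak. Content of G and C over all windows was not computed. Peaks of both lists over the same start window, here 250 bp before to 50 bp after the start, were found at 3 of the 7 genes with a window and at 0.467% of the 15843 protein-coding genes with one. The choice of genes limits this comparison in the same way. The letters of the SOX4 motif were looked for as 7 bases, in order A or T, A or T, CAA, A or T and G, and those of the STAT6 motif as TTC and GAA with 3 or 4 bases between them, both on either strand. The motifs can share the letters TTC. None of the 3 windows held an exact match to either motif. The putative SOX4 and STAT6 sites that the study marked and mutated in its MTHFD2 reporter lie inside the printed MTHFD2 window and are spelled differently from the letters searched. Among all 35116 windows of 250 bases, 17.9% held the first and 11.5% the second. The absence of these letters says nothing about binding of the factors in these windows or elsewhere under the peaks.

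Matches lay in windows of the same pathway that no peak touched. Since 17.9% of all 35116 windows held a SOX4 match and 11.5% a STAT6 match, these few matches draw no contrast with the windows under peaks. They are printed with 10 bases on either side where the window allows, and capitals mark the match. The first pair of lines below holds SOX4 matches at inner starts of MTHFD2L (chr4:74123141-74123167) and MTHFD1L (chr6:151006929-151006955). They are followed by the SOX4 matches at the outermost start of SLC19A1 (chr21:45563234-45563260 and chr21:45563177-45563203), a STAT6 match of SHMT1 (chr17:18363749-18363777) and a STAT6 match at an inner start of SLC19A1 (chr21:45534982-45535006).
MTHFD2L: cagtgttagtTTCAAAGtgcatagtgg
MTHFD1L: aataccatggCATTGAAaaaaatgcgt
SLC19A1 outermost start, first match: tattcttgagCTTTGTTctggaatgca
SLC19A1 outermost start, second match: ccgaggcttgCTTTGAAcgtttcaggc
SHMT1: ctgtgtagtcTTCCTGGAAatcttggtcc
SLC19A1 inner start: tccctgTTCAGAGAAgccgccctga

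MTHFD2 encodes the mitochondrial methylenetetrahydrofolate dehydrogenase and cyclohydrolase. Its gene (chr2:74198615-74217565, plus strand, 18951 bp) held 1 peak in each list, and both lay over the promoter. The SOX4 summit lay at −249 bp and the STAT6 summit at −211 bp from the annotated start, so the summits were 38 bp apart. In the SOX4 list the fold enrichment over IgG was 4.37 with a −log10 q of 26.2, below the list median of 5.88. A minimum fold enrichment of 5 would leave MTHFD2 without a SOX4 peak. In the STAT6 list the fold enrichment was 15.4 with a −log10 q of 112, above the list median of 7.27. The remaining gene body held no peak, and 0.781% of its bases were covered in either list.

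By fold enrichment, the MTHFD2 promoter stood low in the SOX4 list and high in the STAT6 list. Its SOX4 peak lay 65.4% of the way down the SOX4 list by fold enrichment and its STAT6 peak 9.46% down the STAT6 list. Ordered by −log10 q, an alternative added after the data were seen, the same peaks lay 37.7% and 3.15% of the way down, so that the low place in the SOX4 list held for fold enrichment and not for q. There were 850 overlapping pairs of SOX4 and STAT6 peaks. Of these, 2 ranked at or below MTHFD2 in the SOX4 list and at or above it in the STAT6 list. The number was also 2 by −log10 q. Because the limits were the ranks of MTHFD2 itself, its own pair is always counted, and the number does not measure how unusual that pair is. By fold enrichment, the other pair lay at HLA-DRB5, an antigen-presentation gene on chromosome 6, with fold enrichments of 2.54 and 23.4, and was named after its values were seen. In 814 of the 850 pairs the SOX4 peak stood in the upper 20% of its list, and MTHFD2 was among the other 36.

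**Figure D2:**
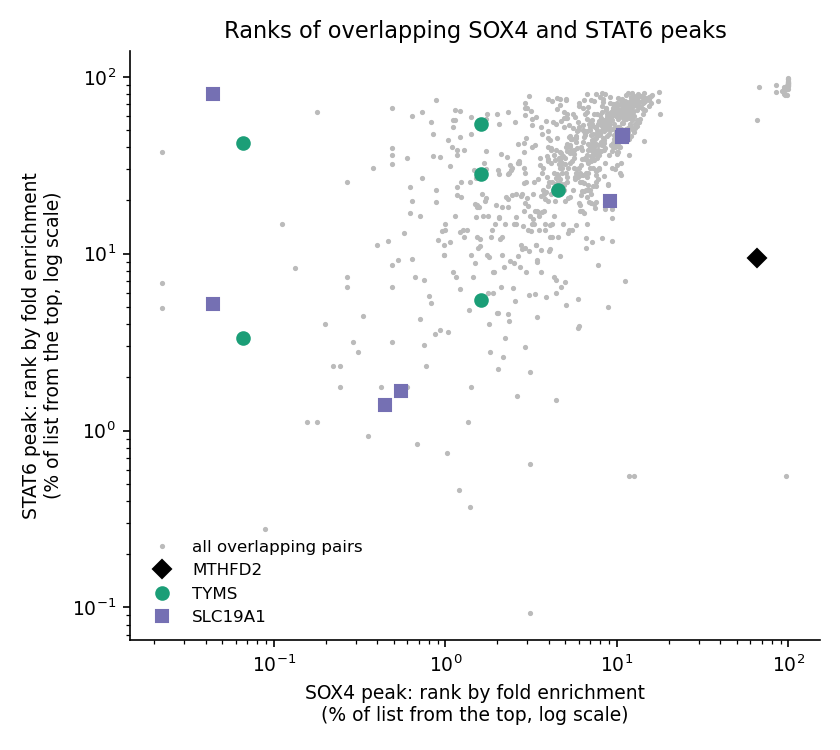
Rank of the SOX4 peak (horizontal axis) against rank of the STAT6 peak (vertical axis) in each overlapping pair, as a percent of the list from its highest fold enrichment, on log scales. Grey points are all 850 pairs, and the coloured symbols are the 14 pairs at the 3 genes. MTHFD2 lies at 65.4% and 9.46%, while the SOX4 ranks of TYMS and SLC19A1 lie between 0.0443% and 10.8%.

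Both MTHFD2 peaks ended at the same base, 147 bp downstream of the annotated start, while they began 118 bp apart. The primers that the study used on this promoter were looked for in the 300 bases of the start window. The reverse primer of its ChIP-qPCR assay matched the minus strand at chr2:74198509-74198527, inside both peaks and downstream of both summits. The forward primer of its reporter construct named −300 matched the plus strand at chr2:74198463-74198487 once the cloning tail common to the forward reporter primers was removed. The number in the name does not match this position, which lies less than 250 bp before the annotated start and downstream of both summits.
ChIP-qPCR reverse primer: ccactggctgtctgttgag
Reporter forward primer without its tail: ttacgtttaataaagaaaaccggtt
From the first base of this reporter primer to the shared end of the peaks there were 300 bases. The study numbers the downstream end of its MTHFD2 reporter constructs +147. Whether this is the same base as the shared end of the peaks depends on how the start base is numbered, and was not resolved. A contribution of cloned promoter DNA to the peaks was not tested. The other MTHFD2 primers, with the tails of reporter primers removed, had no match in this window, and positions outside it were not searched.

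MTHFD1L, the mitochondrial formyltetrahydrofolate synthetase that releases formate, held 1 SOX4 peak and no STAT6 peak. The SOX4 peak (chr6:150974147-150975171) had a fold enrichment of 9.11 and a −log10 q of 30.6, rank 1448 in its list. Its summit lay 109 kb into the gene of 236 kb, 46.1% of the way along it and 32.4 kb upstream of the nearest annotated inner start. The nearest STAT6 peak was 2937 kb from the gene. Among the 4 genes with a SOX4 peak, it was MTHFD1L alone that had no peak over a start window.

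Mitochondrial enzymes without a peak were MTHFD2L and SHMT2. MTHFD2L, the close relative of MTHFD2, is a gene of 189 kb, and its nearest SOX4 and STAT6 peaks were 155 kb and 176 kb away and had values of 3.83 and 4.33. SHMT2, the mitochondrial serine hydroxymethyltransferase, is a short gene of 5225 bp, and the nearest peaks were 283 kb and 1329 kb away.

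TYMS, thymidylate synthase, was the only cytosolic gene with peaks. Its gene (chr18:657653-673578, plus strand, 15926 bp) held 3 SOX4 peaks with fold enrichments of 232, 113 and 151 from the start to the end of the gene. The first SOX4 summit lay 33 bp past the start, the second 4.54 kb into the gene and the last 15.7 kb into it, 98.5% of the way along. The STAT6 list held 6 peaks there with fold enrichments, in the same order, of 18.9, 8.22, 11.4, 6.64, 10.5 and 17.1. Both lists were thus highest at the start of the gene, and the STAT6 list was next highest at its end.

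A stretch of 5384 bp inside TYMS separated the second from the last SOX4 peak and held no peak of either list. The SOX4 peaks covered 64.0% of the gene, rank 42 of 20037 protein-coding genes, and the STAT6 peaks covered 31.5%, rank 49. In stretches of the same length that began 5000 bp beyond its ends, 0% was covered in either list. TYMS overlaps TYMSOS, a noncoding gene at its start, and ENOSF1 (chr18:662986-712630). The end of ENOSF1 with the lower coordinate lies within the second SOX4 peak, and the gene extends past the far end of TYMS. Where ENOSF1 is transcribed from was not examined. The first SOX4 and the first STAT6 peak also lay on TYMSOS, and the other 2 SOX4 peaks and the last 3 STAT6 peaks on ENOSF1, so these peaks cannot be assigned to TYMS alone.

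The other cytosolic enzymes held no peak. MTHFD1, a single protein with the dehydrogenase, cyclohydrolase and synthetase steps of the cytosolic arm, had its nearest SOX4 peak at a distance of 24.2 kb, enriched 8.56-fold, while the nearest STAT6 peak was 10610 kb away. SHMT1, the cytosolic serine hydroxymethyltransferase, had its nearest peaks 1235 kb and 1945 kb away. Accordingly, the cytosolic group rested on TYMS for each of its 3 SOX4 and 6 STAT6 peaks.

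SLC19A1 held the most peaks of the 8 genes. The gene (chr21:45502517-45563025, minus strand, 60509 bp) overlapped 6 SOX4 peaks, and in the direction of transcription their fold enrichments were 68.2, 250, 173, 81.7, 68.7 and 176. The 7 STAT6 peaks had fold enrichments of 7.64, 17.2, 3.46, 20.4, 12.3, 7.84 and 21.4 in the same direction. In neither list was the highest of these values at a start site.

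All peaks of SLC19A1 lay within 31.4 kb. The outermost 19860 bp, which begin at the most upstream annotated start, held none, and neither did the last 9252 bp at the other end. The first SOX4 and STAT6 summits lay 51 bp and 55 bp past the inner start at 45542440 whose promoter is printed above. That SOX4 peak also covered the start window of the start at 45541846, which no STAT6 peak touched, and the start at 45534756 had no peak over its window. The SOX4 peaks covered 29.4% of the gene, rank 97 of 20037, and the STAT6 peaks 17.0%, rank 81. The last peak of each list also overlapped COL18A1, a collagen gene, and the flank on that side was covered to 2.69% and 1.19%, the other to 0%.

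**Figure D3:**
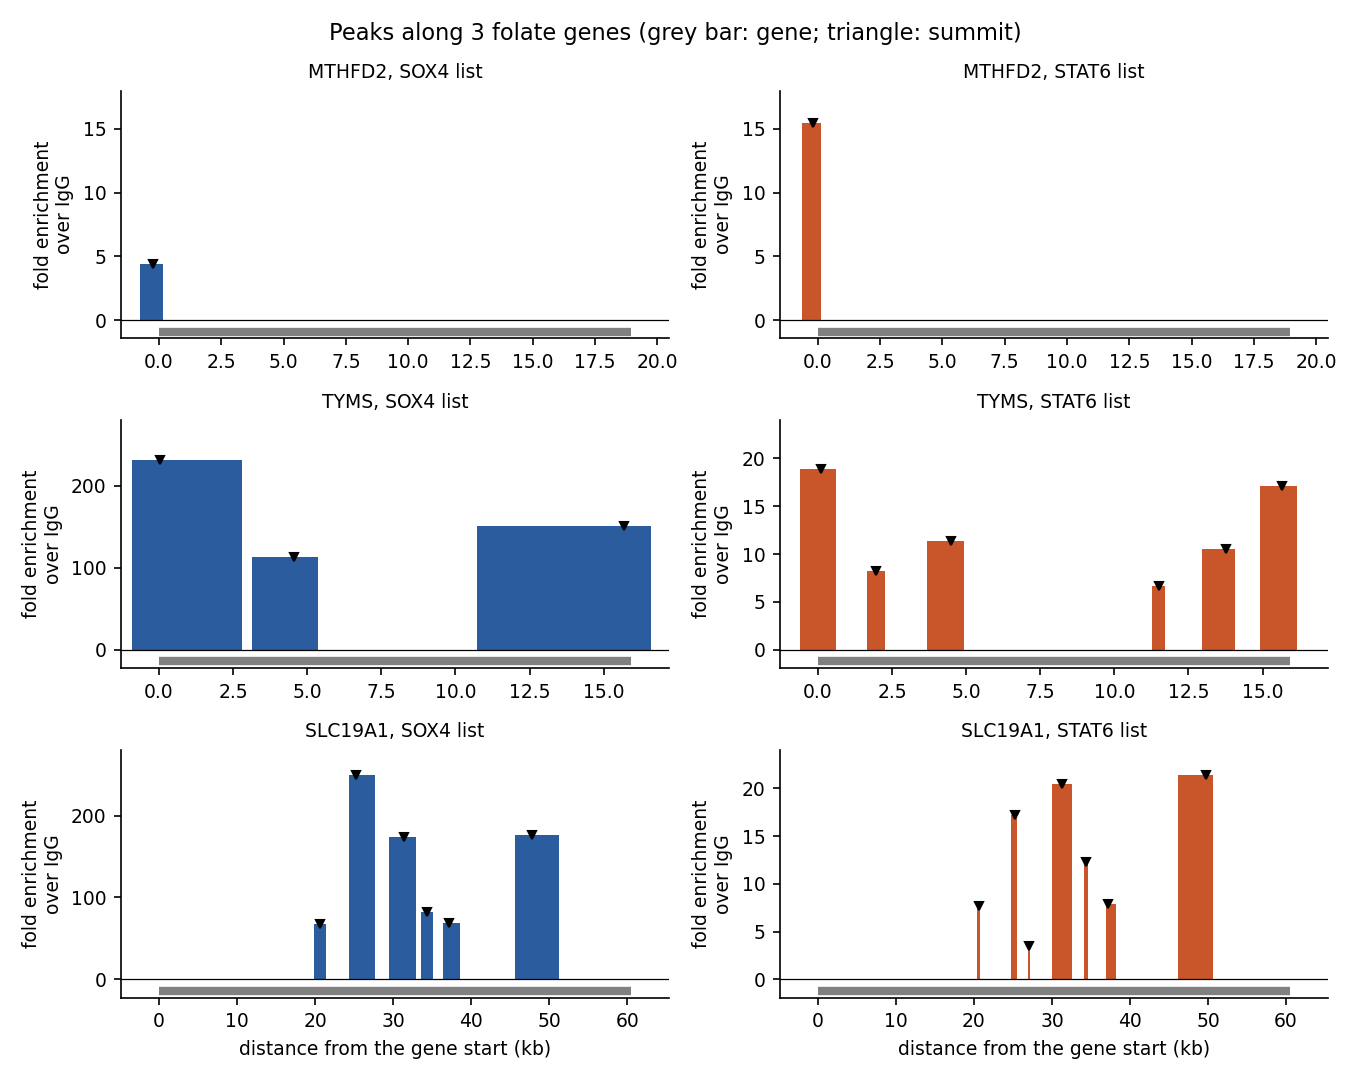
Position of each peak along MTHFD2, TYMS and SLC19A1 (horizontal axis, distance from the outermost gene start in the direction of transcription, in kb) and its fold enrichment over IgG (vertical axis, whose scale differs between panels). The grey bar is the gene, the width of each coloured bar is the width of the peak and the triangle is the summit. MTHFD2 has 1 peak per list at its start, whereas TYMS and SLC19A1 have several along the gene.

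The STAT6 peaks at these genes lay under SOX4 peaks. Each of the 14 STAT6 peaks lay wholly inside a SOX4 peak, where 76.6% of all 1078 STAT6 peaks did. In 9 of the 14 overlapping pairs the summits were within 100 bp, and the closest were 2 bp apart at SLC19A1. Over all 850 pairs the share within 100 bp was 55.6%. In the other 5 pairs the summits were 1776 to 4197 bp apart, and 4 of these 5 were a further STAT6 peak inside a SOX4 peak that already held a closer one. The SOX4 peaks of TYMS and SLC19A1 were broad, with a median width of 3342 bp beside 891 bp over the whole list. Because both lists were called over the same IgG library, their positions and fold enrichments are not independent.

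When the compartments were set side by side, the SOX4 fold enrichments of the mitochondrial genes lay below those of TYMS and SLC19A1, whose ranges overlapped. The mitochondrial genes had 2 SOX4 peaks, at 4.37 and 9.11, whereas the 3 cytosolic peaks ranged from 113 to 232 and the 6 transporter peaks from 68.2 to 250. The lowest value at TYMS and SLC19A1 was reached by 10.8% of all SOX4 peaks. In the STAT6 list the ranges of all 3 overlapped, since the mitochondrial peak at MTHFD2, at 15.4, lay within the cytosolic range of 6.64 to 18.9 and the transporter range of 3.46 to 21.4. SOX4 peaks covered 0.261% of the bases of the mitochondrial genes, 8.27% of the cytosolic and 29.4% of the transporter gene, and STAT6 peaks 0.0330%, 4.06% and 17.0%. These groups hold 4, 3 and 1 genes, of which 1 gene carries each nonzero STAT6 value, so that the difference is between single genes and not between compartments.

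**Figure D4:**
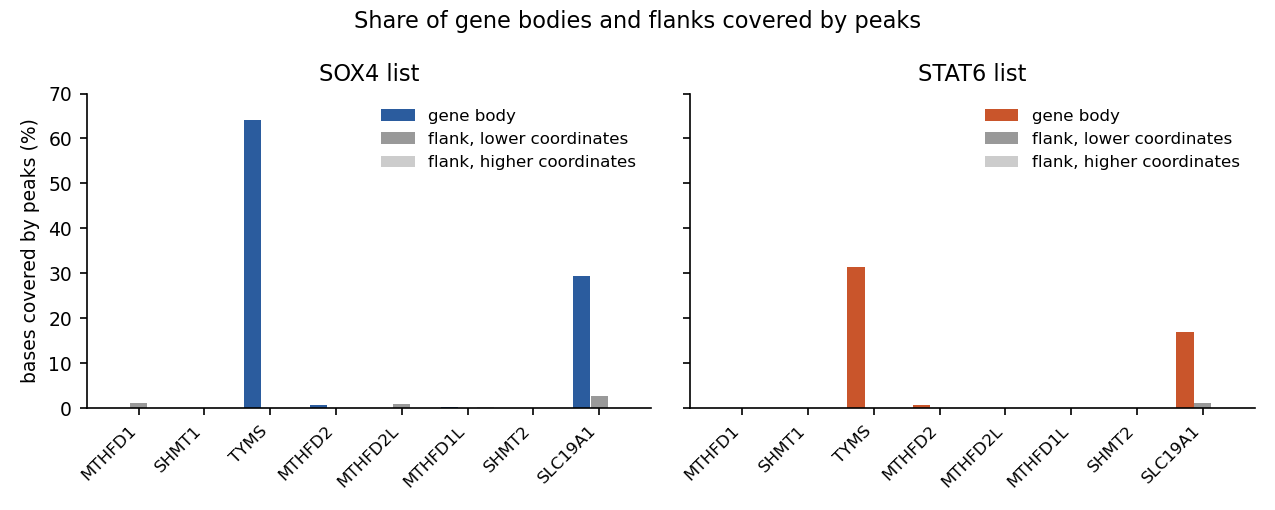
Percent of bases covered by SOX4 peaks (left panel) and STAT6 peaks (right panel) in each gene body (coloured) and in stretches of the same length beginning 5000 bp beyond its ends (grey). Coverage reaches 64.0% and 31.5% at TYMS and 29.4% and 17.0% at SLC19A1, and stays at or below 2.69% in all flanks.

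Beyond the 8 genes, 43 further genes of folate uptake, storage, reduction and use, and of the methionine cycle were examined. Of these, 4 held a SOX4 peak, and none held a STAT6 peak, beside the 6.35% and 1.08% of all protein-coding genes. The highest was at GLDC, the mitochondrial glycine decarboxylase, with a fold enrichment of 21.5 (chr9:6638537-6639664). AHCY, which clears S-adenosylhomocysteine, had 10.2, and its relative AHCYL2 had 3.75. FTCD, a liver enzyme of histidine breakdown that feeds the folate pool, had 5.83. The peaks of 3 of the 4 genes also overlapped another annotated gene, which was RPL23AP57 at GLDC, ASIP at AHCY and LOC124900234 at AHCYL2. Each of these 4 fold enrichments was below the lowest of 68.2 at TYMS and SLC19A1.

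Pseudogenes named after the 8 genes were also examined, because their sequence resembles that of the parent genes. Of 11 such pseudogenes, 7 were of MTHFD2, and 1 of the 11 held a peak. The share of all pseudogenes with a peak was not computed, so whether 1 of 11 is unusual cannot be told. TYMSP2 on chromosome 19, a copy of TYMS 5.30 kb from UPK1A, the nearest protein-coding gene, held a SOX4 peak (chr19:35682495-35684526) with a fold enrichment of 53.6, rank 574, and a STAT6 peak (chr19:35683691-35683926) with one of 4.87, rank 745. TYMSP1 on chromosome 6 held none. How reads that match TYMS and its copies were treated is not given in the sources used here.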

How the data were processed

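Binding of SOX4 and STAT6 was measured by CUT&RUN in Hep3B cells, with 1 library per antibody and 1 IgG library whose peaks were not analysed here. Per the labels, the authors used Partek and BWA with build hg38. The peak caller, its threshold, the read depth and the treatment of duplicate or multiply matching reads are not given in the sources used here. For each peak the authors deposited its position and summit, the ratio of its signal to IgG (fold enrichment), its −log10 p, its −log10 q and a whole-number display score, which was left out.

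Genes came from RefSeq (GRCh38.p14, the same build), positions are 1-based, and exons were not analysed here. Peaks were matched to genes by an overlap of at least 1 bp with the gene or the 1000 bp on either side, and to each other likewise. Ranks are by fold enrichment within a list. The 8 genes, the 43 further genes and the compartments were chosen with earlier results of these data known, and all peaks at the 8 genes are named. Some further genes of the pathway are not reported here. The overlap functions were tested on simulated data. Python 3.11.15, numpy 2.4.6 and pandas 2.3.3 were used. The alternatives were other margins, minimum values of q or fold enrichment, the summit in place of the peak, other definitions of a pair, flanks, and ranks by −log10 q.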

Additional observations from a re-analysis of the deposited data

How the results depend on the processing

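The numbers of genes with a peak, 4 for SOX4, 3 for STAT6 and 3 for both, stayed within a factor of 1.5 under margins of 0 bp and 3000 bp, a minimum −log10 q of 5, a minimum fold enrichment of 5 and the summit in place of the whole peak. Of 134 values computed under alternatives over 31 results, 127 stayed within that factor, 7 moved and 0 reversed. Counts and percents have no sign to reverse, so the 0 carries no information. The shift of the SOX4 rank of MTHFD2 from the lower to the upper part of its list was counted as moved. Many of the 127 were counts of 0 that stayed at 0, which stricter settings could not raise, so the tally is no measure of robustness. The 14 overlapping pairs became 5 under a required overlap of 50% of each peak and 9 when summits had to lie within 200 bp, changes that follow from the stricter definitions. Of the bases of the 8 genes together, 4.61% lay under SOX4 and 2.44% under STAT6 peaks, against 0.412% and 0.0820% of their flanks. A minimum fold enrichment of 5 removed the SOX4 peak of MTHFD2, whose count became 0, and left 3 genes with a SOX4 peak and 2 with both. Ranked by −log10 q, an alternative added after the data were seen, the MTHFD2 peaks moved from 65.4% to 37.7% of the SOX4 list and from 9.46% to 3.15% of the STAT6 list. No paired analysis was possible because there was 1 library per antibody. Without replicates or read depth, no difference between the lists can be assigned to the factors.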
